A study of Schizosaccharomyces pombe with 9 samples.

Results

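Ribosome biogenesis factors are the proteins that process ribosomal RNA and assemble the ribosomal subunits but are not part of the finished ribosome. They were selected by gene name, with symbols such as nop, utp, rrp, dbp and gar followed by a number, and 21 individual symbols. These names were chosen with earlier results of these data known. On the array 45 S. pombe probe sets carried such a name, 1 for each of 45 genes, out of 2937 named S. pombe probe sets, and 13 of the 21 individual symbols had a probe set. Expression was measured in 3 strains of the fission yeast Schizosaccharomyces pombe with 3 Affymetrix arrays each. SD1 was SPQ-01 with rpl32-1 deleted, SD2 was SPQ-01 with rpl32-2 deleted, and WT was SPQ-01 itself. Each deletion strain thus kept 1 gene for L32, a protein of the large ribosomal subunit that is encoded by a pair of paralogs. All cells grew in YEPD, a rich medium, at 30 °C to an OD600 of 5.0, which the labels call log phase. The labels do not give the mating type of SPQ-01, its other alleles or the number of clones behind each deletion.

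In the nucleolus, RNA polymerase I makes a long precursor RNA from which the 18S, 5.8S and large-subunit rRNAs are cut. The small subunit processome folds and cleaves the 18S part, while small nucleolar ribonucleoproteins (snoRNPs) modify the RNA and the exosome trims and degrades spacer RNA. A separate series of factors assembles the large subunit and takes it out of the nucleus. In yeasts the genes for these factors are known to be expressed together and to follow growth conditions.

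The numbered arrays were not alike in their independence. Strain differences taken within arrays 1 and within arrays 3 were almost the same, with Pearson's r of 0.988 for SD1 minus WT, 0.979 for SD2 minus WT and 0.970 for SD2 minus SD1 across the 2937 probe sets. Between arrays 1 and arrays 2 the same r values were 0.887, 0.821 and 0.579. Within a strain, arrays 1 and 3 did differ in level, by an SD of 0.315 to 0.325 (log2) over probe sets, but that gap was shared by the strains and left an SD of only 0.0472 to 0.055 once it was removed. The corresponding remainder was 0.17 to 0.239 between arrays 1 and 2 and 0.168 to 0.242 between arrays 2 and 3. The labels call all arrays of a strain biological replicates. Whether arrays 1 and 3 came from the same cultures was not tested, and calls are given over all 9 arrays and then with arrays 1 and 3 averaged and counted as 1 sample, which leaves n = 2 per strain. Counts of arrays that lie wholly apart and the values within array numbers are over all 9 arrays unless averaging is named.

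The labelled deletions were visible on every array. The value of rpl3201, the current name of rpl32-1, lay at 4.17 to 6.04 in SD1, 14.50 to 15.12 in SD2 and 13.88 to 14.45 in WT (log2). That of rpl3202, which is rpl32-2, lay at 7.25 to 8.89 in SD2, 14.15 to 14.48 in SD1 and 14.11 to 14.38 in WT. No biogenesis factor was near background, taken on each array as the level that 95% of the budding yeast (S. cerevisiae) probe sets stayed under (5.13 to 5.26). The lowest factor value on any array was 7.06 and the highest was 13.35.

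Loss of either L32 gene went with higher mRNA levels of most biogenesis factors. In SD1 41 of the 45 genes rose and 0 fell, where 19.5% of all S. pombe probe sets rose. In SD2 41 rose and 0 fell, where 17.6% of all probe sets rose. The same 41 genes rose in both strains, where 16.3% of all probe sets did, and the other 4 passed in neither. Falls were called in 23.7% of all probe sets in SD1 and 14.3% in SD2. The median change over the 45 genes was 1.34 (log2, 2.53-fold) in SD1 minus WT and 0.99 (1.99-fold) in SD2 minus WT, while the median over all probe sets was -0.03 and 0.01. Calls were made with limma over all 9 arrays at an adjusted p (Benjamini-Hochberg over the 2937 probe sets) under 0.05. Among the 41 the adjusted p ran up to 0.00659 in SD1 and 0.0118 in SD2. With arrays 1 and 3 averaged 41 rose and 0 fell in SD1, beside 16.2% of all probe sets, and 41 rose and 0 fell in SD2, beside 13.5%. The highest adjusted p among the 41 was then 0.0205 and 0.0366 in limma.

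**Figure D1:**
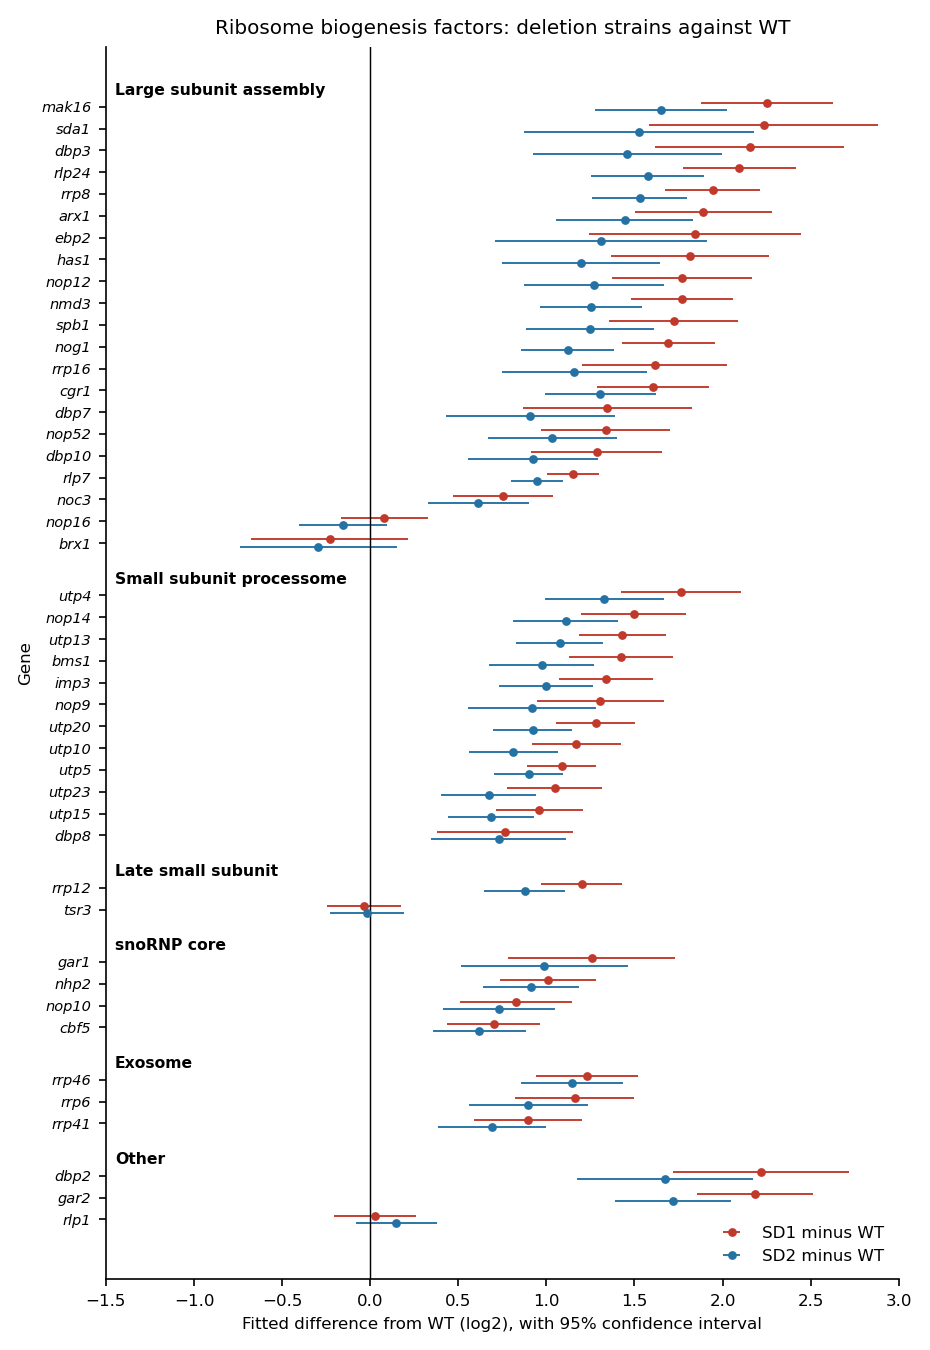
Fitted difference from WT (log2) for each of the 45 genes, grouped by role, with SD1 in red and SD2 in blue; points are limma estimates over 9 arrays and bars their 95% confidence intervals. In 41 genes both intervals lie above 0, and in nop16, brx1, tsr3 and rlp1 both span 0.

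A rise of at least 2-fold was called in 35 of the 45 genes in SD1, where 5.38% of all probe sets had one, and in 21 of the 45 in SD2, where 3.3% did. These counts were, with arrays 1 and 3 averaged, 36 beside 5.52% in SD1 and 27 beside 4.05% in SD2. Averaging gives array 2 of each strain more weight, and WT array 2 was the lowest WT array in 42 of the 45 genes. The median in SD2 minus WT was 1.08 in the averaged fit and 0.89 without all arrays 2. Over the 9 arrays, the 45 genes made up 22.2% of the 158 probe sets that rose at least 2-fold in SD1 and 21.6% of the 97 that did so in SD2. Of the 100 largest fitted rises, 26 in SD1 and 21 in SD2 were biogenesis factors. The 3 arrays of the deletion strain all lay above the 3 of WT for 41 genes in SD1 and 41 in SD2, against 23.3% and 23.1% of all probe sets. Once arrays 1 and 3 were averaged, both values of the deletion strain lay above both of WT for 41 genes in SD1 and 42 in SD2, against 32.8% and 34% of all probe sets.

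Most large subunit factors rose. This list had 21 measured genes, of which 19 rose in SD1 and 19 in SD2 (19 and 19 also with arrays 1 and 3 averaged), with a median of 1.72 in SD1 minus WT and 1.25 in SD2 minus WT. The gene mak16, whose product is needed for early assembly of the large subunit in the nucleolus, had log2 values of 10.96, 10.57 and 10.85 in SD1, 10.20, 10.21 and 10.17 in SD2, and 8.68, 8.16 and 8.78 in WT (arrays 1, 2 and 3 in this order, here and below). The 3 strains did not overlap, and the lowest deletion array stood well above the highest WT array. Its rise was 2.25 ± 0.16 (SE, log2, 4.77-fold) in SD1 and 1.65 ± 0.16 (3.14-fold) in SD2, at limma adjusted p of 6.7e-05 and 0.000478.

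The gene sda1, required in budding yeast for large subunit maturation and export, had values of 10.48, 9.80 and 10.12 in SD1, 9.52, 9.58 and 9.18 in SD2, and 8.36, 7.24 and 8.10 in WT. The WT arrays spread by more than 1 log2 unit here, with array 2 the lowest, yet every deletion array was above all of them. It was 4.7-fold higher in SD1 (2.23 ± 0.29) and 2.88-fold higher in SD2 (1.53 ± 0.29). The gene dbp3, a DEAD-box RNA helicase gene, had values of 11.59, 10.86 and 11.25 in SD1, 10.69, 10.52 and 10.41 in SD2, and 9.45, 8.62 and 9.17 in WT. The strains were again separate, with SD2 between SD1 and WT. The rise was 4.45-fold in SD1 (2.16 ± 0.24) and 2.75-fold in SD2 (1.46 ± 0.24).

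Other genes of this list covered several steps of the pathway. The gene rlp24, whose product holds the place of a ribosomal protein in the nuclear precursor, rose 4.27-fold in SD1 and 2.98-fold in SD2. The rRNA methyltransferase genes rrp8 and spb1 rose 3.85-fold and 3.3-fold in SD1, and 2.89-fold and 2.37-fold in SD2. Export factor genes moved in the same direction. They were arx1 (3.71-fold in SD1, 2.72-fold in SD2) and nmd3 (3.41-fold in SD1, 2.38-fold in SD2), both of which help the large subunit through the nuclear pore. The GTPase gene nog1 rose 3.23-fold in SD1 and 2.18-fold in SD2. The remaining called members were ebp2, has1, nop12, rrp16 (synonym nop53), cgr1, dbp7, nop52, dbp10, rlp7 and noc3. Their changes ran from 0.75 in noc3 to 1.84 in ebp2 in SD1, and from 0.61 in noc3 to 1.31 in ebp2 in SD2 (log2). Without all arrays 3, ebp2, dbp7, nop52 and noc3 did not pass in SD2 (limma adjusted p of 0.0761, 0.0689, 0.054 and 0.0567). Without all arrays 2, ebp2 and noc3 did not pass in SD2 (0.0529 and 0.0571).

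Within the large subunit list nop16 and brx1 did not pass in either strain. The gene nop16, a nucleolar assembly factor gene, had values of 11.24, 11.13 and 11.26 in SD1, 11.22, 10.85 and 10.86 in SD2, and 11.21, 11.11 and 11.07 in WT. All strains overlapped. The difference was 0.08 ± 0.11 in SD1 (95% interval -0.17 to 0.33) and -0.15 ± 0.11 in SD2 (-0.40 to 0.09), at limma adjusted p of 0.598 and 0.32. The gene brx1, whose product binds that of ebp2 in budding yeast, had values of 12.33, 11.83 and 12.01 in SD1, 12.31, 11.85 and 11.82 in SD2, and 12.15, 12.09 and 12.62 in WT. The difference was -0.23 ± 0.19 in SD1 (-0.67 to 0.21) and -0.29 ± 0.19 in SD2 (-0.74 to 0.15). Its arrays did not move alike. Within arrays 1 it was 0.18 higher in SD1 and 0.16 higher in SD2 than in WT, and within arrays 3 the difference was -0.61 in SD1 and -0.80 in SD2. This gap between arrays 1 and 3 was the widest of all 45 genes in both comparisons (0.795 and 0.964), while the median gap was 0.0648 and 0.0625.

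The measured genes of the small subunit processome rose over the 9 arrays. The list held 12 genes, all called in SD1 and in SD2 (12 and 12 also with arrays 1 and 3 averaged), with a median of 1.29 in SD1 minus WT and 0.92 in SD2 minus WT. The gene utp4, a subunit gene of the complex that binds the 5' end of the precursor rRNA, had values of 10.49, 10.47 and 10.54 in SD1, 9.99, 10.14 and 10.06 in SD2, and 8.83, 8.35 and 9.01 in WT. It was 3.4-fold higher in SD1 (1.77 ± 0.15) and 2.51-fold higher in SD2 (1.33 ± 0.15). The gene nop14, for a processome component, had values of 10.68, 10.63 and 10.74 in SD1, 10.21, 10.39 and 10.29 in SD2, and 9.28, 8.87 and 9.41 in WT. It rose 2.82-fold in SD1 and 2.16-fold in SD2. The gene utp13, for a subunit of a second processome complex, had values of 10.71, 10.55 and 10.70 in SD1, 10.27, 10.31 and 10.32 in SD2, and 9.31, 8.98 and 9.38 in WT. It rose 2.7-fold in SD1 and 2.11-fold in SD2. In each of these genes the strains were separate, with SD1 highest and WT lowest.

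The other processome genes were the GTPase gene bms1 (2.68-fold in SD1, 1.96-fold in SD2), imp3, nop9, utp20, utp10, utp5, utp23, utp15 and the RNA helicase gene dbp8. The smallest rise of this list in SD1 was that of dbp8, with values of 8.98, 9.29 and 9.01 in SD1, 9.0, 9.13 and 9.05 in SD2, and 8.54, 7.92 and 8.53 in WT. The deletion strains overlapped each other but not WT. The rise was 0.76 ± 0.17 in SD1 and 0.73 ± 0.17 in SD2, at limma adjusted p of 0.00659 and 0.0117, and it was 0.44 and 0.46 within arrays 1 against 1.38 and 1.21 within arrays 2. This call was lost in both strains with arrays 1 and 3 averaged and the number as a block (limma adjusted p of 0.0543 in SD1 and 0.0811 in SD2). Without all arrays 3, dbp8, nop9 and utp23 did not pass in SD2 (0.0861, 0.0663 and 0.0761).

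Later steps of small subunit maturation were represented by rrp12 and tsr3, and they differed. The gene rrp12, for a HEAT-repeat protein of subunit export, had values of 10.16, 10.11 and 10.26 in SD1, 9.76, 9.92 and 9.88 in SD2, and 9.0, 8.78 and 9.15 in WT, a rise of 2.3-fold in SD1 and 1.84-fold in SD2. The gene tsr3, for the enzyme that completes a modified base of 18S rRNA, had values of 10.04, 10.21 and 10.18 in SD1, 10.04, 10.21 and 10.23 in SD2, and 10.04, 10.26 and 10.24 in WT. Array 1 read 10.04 in every strain, below all arrays 2 and 3, and the strains overlapped. The difference was -0.04 ± 0.09 in SD1 (95% interval -0.24 to 0.17) and -0.02 ± 0.09 in SD2 (-0.23 to 0.19).

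**Figure D2:**
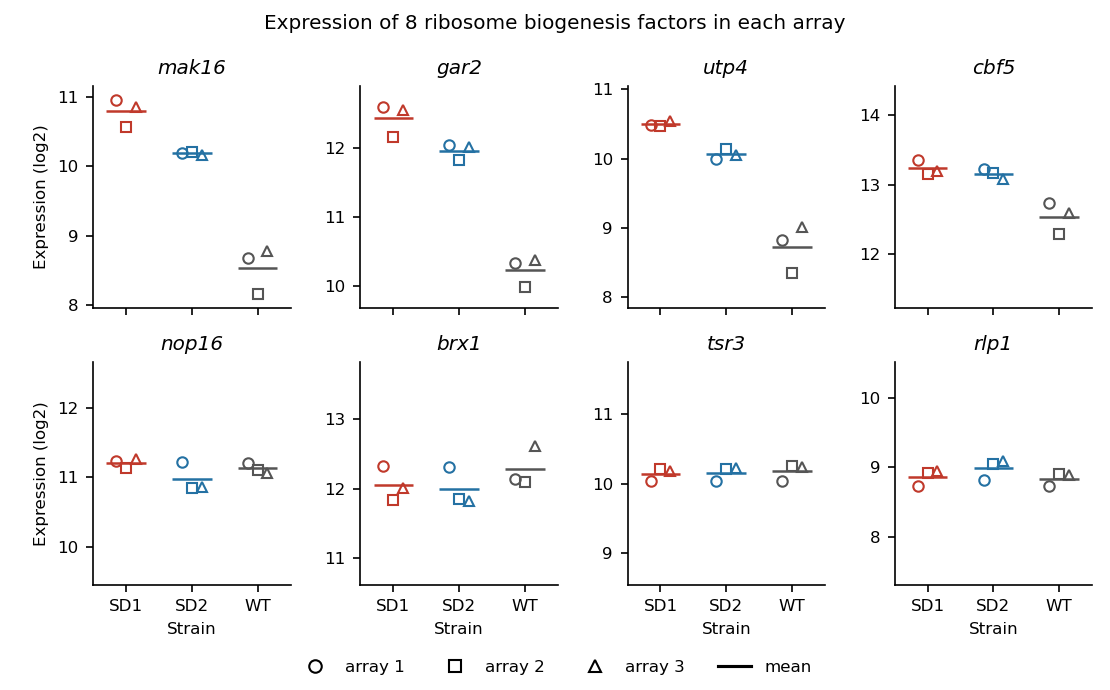
Expression (log2) of 8 genes in each array of SD1, SD2 and WT; symbols give the array number, lines the strain mean, and every panel spans the same log2 range. In mak16, gar2, utp4 and cbf5 the WT arrays lie below all deletion arrays, and in nop16, brx1, tsr3 and rlp1 the strains overlap.

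The core of the H/ACA snoRNP, which converts uridine to pseudouridine in rRNA, was measured with all 4 of its protein genes, and all 4 rose in each deletion strain. The gene gar1 had values of 13.25, 12.73 and 12.89 in SD1, 12.85, 12.71 and 12.51 in SD2, and 12.05, 11.27 and 11.77 in WT. The gene nhp2 had values of 13.25, 13.02 and 13.09 in SD1, 13.17, 12.94 and 12.97 in SD2, and 12.26, 11.88 and 12.20 in WT. The gene nop10 had values of 12.50, 12.28 and 12.31 in SD1, 12.37, 12.27 and 12.14 in SD2, and 11.76, 11.22 and 11.62 in WT. In all of them SD1 and SD2 overlapped and WT lay below both. The folds were 2.39, 2.01 and 1.78 in SD1 and 1.99, 1.88 and 1.66 in SD2, in the order gar1, nhp2 and nop10. The pseudouridine synthase gene cbf5 had values of 13.35, 13.16 and 13.20 in SD1, 13.22, 13.16 and 13.08 in SD2, and 12.73, 12.29 and 12.59 in WT. Its rise was the smallest of the 41 genes in SD1 (1.62-fold), and it rose 1.54-fold in SD2. The list median was 0.92 in SD1 minus WT and 0.82 in SD2 minus WT, and with arrays 1 and 3 averaged 4 of 4 rose in each. Without all arrays 3, gar1, nop10 and cbf5 did not pass in SD2 (limma adjusted p of 0.0761, 0.0663 and 0.078). Without all arrays 2, gar1 did not pass in SD2 (0.064).

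Exosome genes rose as well, 3 of 3 in each strain, also with arrays 1 and 3 averaged. The core ring gene rrp46 had values of 9.99, 9.61 and 10.06 in SD1, 9.78, 9.84 and 9.78 in SD2, and 8.78, 8.49 and 8.71 in WT, a rise of 2.35-fold in SD1 and 2.21-fold in SD2. The nuclear exonuclease gene rrp6 had values of 9.67, 9.81 and 9.81 in SD1, 9.40, 9.64 and 9.47 in SD2, and 8.75, 8.24 and 8.82 in WT, a rise of 2.23-fold in SD1 and 1.86-fold in SD2. The ring gene rrp41 had values of 10.67, 10.47 and 10.47 in SD1, 10.48, 10.24 and 10.28 in SD2, and 9.88, 9.37 and 9.67 in WT, a rise of 1.86-fold in SD1 and 1.62-fold in SD2. WT was below both deletion strains on every array for these genes. Without all arrays 3, rrp41 did not pass in SD2 (limma adjusted p of 0.087).

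The other 3 symbols matched the name rule without falling under these roles. The gene gar2, for a nucleolin-like protein of the nucleolus, had values of 12.58, 12.15 and 12.54 in SD1, 12.04, 11.83 and 12.00 in SD2, and 10.34, 10.00 and 10.38 in WT. It rose 4.55-fold in SD1 and 3.29-fold in SD2, the largest rise of the 45 genes in SD2. The gene dbp2, for a DEAD-box RNA helicase, had values of 12.67, 12.16 and 12.50 in SD1, 11.87, 12.06 and 11.78 in SD2, and 10.50, 9.71 and 10.48 in WT, a rise of 4.65-fold in SD1 and 3.19-fold in SD2. The gene rlp1 shares only the form of its name, since in fission yeast it encodes a RecA-like protein of DNA recombination. Its values were 8.73, 8.91 and 8.95 in SD1, 8.81, 9.05 and 9.09 in SD2, and 8.73, 8.90 and 8.89 in WT. In array 1 the SD1 and WT values were exactly equal. The difference was 0.03 ± 0.10 in SD1 (95% interval -0.20 to 0.26) and 0.15 ± 0.10 in SD2 (-0.08 to 0.38). Leaving rlp1 out, 41 of 44 genes rose in SD1 and 41 of 44 in SD2.

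A gene with the current symbol ani1 was on the list of names but not among the 45, because the array's annotation calls it fkbp39. It encodes a nuclear peptidyl-prolyl isomerase of the FKBP family. Its values were 12.59, 12.14 and 12.49 in SD1, 12.03, 11.97 and 11.97 in SD2, and 10.00, 9.37 and 10.09 in WT, a 6-fold rise in SD1 (log2 2.58 ± 0.19) and a 4.49-fold rise in SD2 (2.17 ± 0.19). Within each comparison this was more than any of the 45 genes (at most 4.77-fold in SD1 and 3.29-fold in SD2).

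Across the 45 genes, those with higher WT values had somewhat smaller rises. Pearson's r between the WT mean and the difference was -0.43 in SD1 and -0.41 in SD2, and Spearman's rho was -0.38 and -0.31 (n = 45 genes, which share the same arrays and the same WT values on both sides of the relation). Differences between the role lists in the size of the rise were not tested.

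WT array 2 stood apart from the other WT arrays for these genes. It was the lowest WT array in 42 of the 45, with a median deviation from the WT mean of -0.28, while WT arrays 1 and 3 had 0.12 and 0.16. This was partly shared by array number, since SD1 array 2 was the lowest SD1 array in 35 genes (median deviation -0.10). SD2 array 2 was the lowest SD2 array in 12. Such counts over all probe sets are not given here. The median SD over the 3 arrays of a strain was 0.119 in SD1, 0.105 in SD2 and 0.27 in WT. Without WT array 2 the calls stood at 41 of 45 in SD1 and 41 in SD2, and the median difference was 1.18 in SD1 minus WT and 0.88 in SD2 minus WT. Within arrays 1, 2 and 3 the median difference was 1.24, 1.57 and 1.24 in SD1 and 0.90, 1.39 and 0.87 in SD2. All 3 numbers had the higher value in the deletion strain for 42 of the genes in SD1 and 42 in SD2, against 35.9% and 37.4% of all probe sets.

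**Figure D3:**
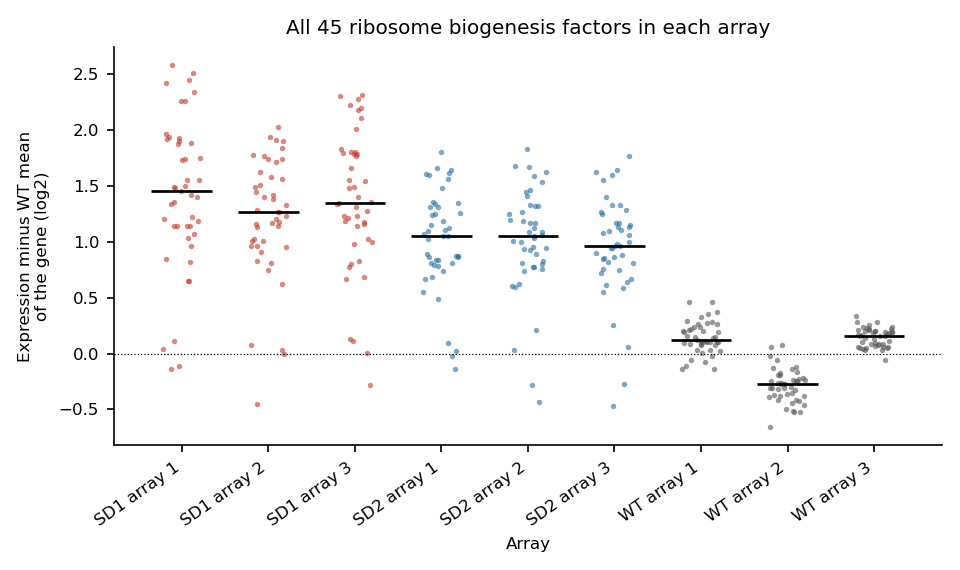
Expression of the 45 genes in each array relative to the WT mean of the gene (log2), with 1 point per gene and the median as a black line. Medians of the SD1 arrays are the highest, those of the SD2 arrays are lower, and WT array 2 lies below WT arrays 1 and 3.

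A difference between the deletion strains was also examined, since SD2 values were mostly lower than SD1 values. The fitted difference SD2 minus SD1 was below 0 in 43 of the 45 genes, where 38.5% of all probe sets were below 0, and its median was -0.36 over the 45 genes and 0.04 over all probe sets. No gene passed the test (0 of 45, lowest limma adjusted p 0.2, nog1), and 0.136% of all probe sets were called lower and 0.034% higher. At an unadjusted p under 0.05, 26 of the 45 were lower in SD2, where 3.58% of all probe sets were. With arrays 1 and 3 averaged 0 passed, beside 0.102% of all probe sets called lower, and 9 had an unadjusted p under 0.05, all of them lower in SD2, where 1.8% of all probe sets were, and the lowest adjusted p was 0.828. With the array number as a block over 9 arrays, 3 genes were called lower in SD2, beside 0.306% of all probe sets. These were nmd3 (-0.52, adjusted p = 0.0363), gar2 (-0.47, 0.0378) and rrp8 (-0.41, 0.0379), all by limma, and 0 were called with that block once arrays 1 and 3 were averaged.

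The 3 SD2 arrays all lay below the 3 SD1 arrays in 31 of the 45 genes, against 6.13% of all probe sets. All of these 31 genes also had SD2 arrays wholly above WT, an order that 5.14% of all probe sets had. Once arrays 1 and 3 were averaged, both SD2 values lay below both SD1 values in 37 genes, against 13.8% of all probe sets. SD2 was lower than SD1 within each of the 3 numbers for 39 genes, against 18.4% of all probe sets. By role, SD2 arrays were wholly below SD1 in 16 of 21 large subunit genes, 11 of 12 processome genes, 1 of 3 exosome genes and 0 of 4 snoRNP genes. By the same roles, averaging arrays 1 and 3 gave 19, 11, 2 and 2 genes with both SD2 values below both of SD1. Without averaging, the list medians of SD2 minus SD1 were -0.46, -0.36, -0.20 and -0.10 in that order. For the 41 genes that rose in both strains, the SD2 difference from WT was between 64.1% and 95.2% of the SD1 difference, with a median of 74.7%. The comparisons with WT share the WT arrays.

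The widest gaps were those of sda1, dbp3 and has1. In sda1 the difference SD2 minus SD1 was -0.71 ± 0.29 (95% interval -1.36 to -0.06), and within arrays 1, 2 and 3 it was -0.96, -0.22 and -0.94. In dbp3 it was -0.70 ± 0.24 (-1.23 to -0.16), with -0.90, -0.34 and -0.85 within the numbers. The helicase gene has1 had values of 10.79, 10.81 and 10.62 in SD2 and 11.48, 11.26 and 11.34 in SD1, beside 9.87, 9.02 and 9.74 in WT, and its difference was -0.62 ± 0.20 (-1.07 to -0.17). In all of them SD2 and SD1 did not overlap. With arrays 1 and 3 averaged, the 95% intervals all included 0. They were -1.37 to 0.20 in sda1, -1.25 to 0.03 in dbp3 and -1.16 to 0.005 in has1. None of these genes passed in either fit. At the other end stood rlp1 (0.12 ± 0.10), tsr3 (0.02 ± 0.09) and dbp8 (-0.04 ± 0.17), in which SD2 and SD1 overlapped.

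**Figure D4:**
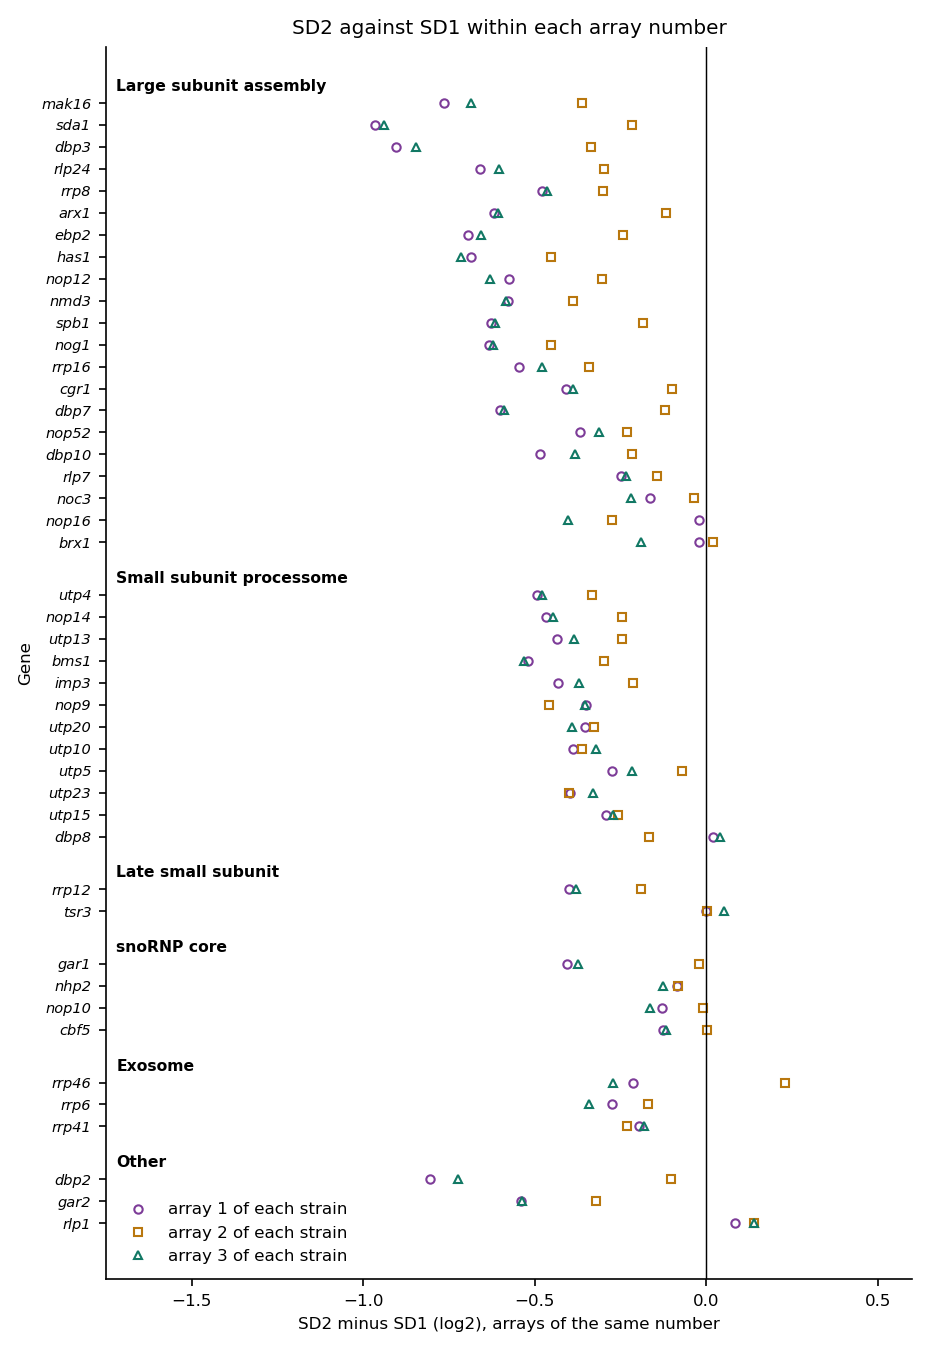
Difference SD2 minus SD1 (log2) for each of the 45 genes within arrays of the same number, grouped by role. Most points lie left of 0, circles (arrays 1) and triangles (arrays 3) often coincide, and squares (arrays 2) tend to lie nearer 0 in the large subunit genes.

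Biogenesis genes outside the name rule were also counted. Beside each count below, 19.5% of all probe sets rose and 23.7% fell in SD1. In SD2 17.6% of all probe sets rose and 14.3% fell. With arrays 1 and 3 averaged these shares were 16.2% and 18% in SD1, and 13.5% and 9.64% in SD2. Of 31 measured genes from a list of 94 such names, 22 rose and 1 fell in SD1, and 22 rose and 1 fell in SD2, with medians of 0.90 in SD1 minus WT and 0.74 in SD2 minus WT. Averaging arrays 1 and 3, 22 rose and 1 fell in SD1, and 21 rose and 1 fell in SD2. The genes rrn3, nuc1 and cka1 were taken out of this list after their values could be seen, and with them 24 of 34 rose and 1 fell in each strain. Largest among them were grn1 (2.03 in SD1, 1.53 in SD2), a gene for a nucleolar GTPase, the RNA helicase gene rok1 (1.94, 1.47), pno1 (1.62, 1.09), for a small subunit assembly factor, and puf6 (1.52, 1.16). The gene that fell was urb2 (-0.46 in SD1, -0.48 in SD2). That list held mak3, a histidine kinase gene in fission yeast, and naa35, a gene for an N-terminal acetyltransferase subunit, which carry names borrowed from budding yeast lists, and neither passed. Of 33 genes for RNA polymerases I and III and their factors, 20 rose and 1 fell in SD1 and 19 rose and 1 fell in SD2, with medians of 0.58 and 0.49. The largest rises were those of the polymerase I subunit genes rpa34 (1.73 in SD1, 1.43 in SD2), rpa12 (1.66, 1.24) and rpa49 (1.59, 1.24) and of the initiation factor gene rrn3 (1.53, 1.32). Averaging arrays 1 and 3, 20 rose and 1 fell in SD1, and 19 rose and 0 fell in SD2. Cytosolic ribosomal protein genes other than those for L32 had medians of 0.10 and 0.08, with 10 of 109 higher and 5 lower in SD1 and 5 higher and 4 lower in SD2. In the averaged fit 6 were higher and 4 lower in SD1, and 5 higher and 3 lower in SD2. All of these ribosomal protein counts were below the shares of all probe sets. Differences between these lists and the 45 genes were not tested.

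Few of the genes next to them on the chromosome rose. Adjacent protein-coding genes were taken from the order of genes in assembly ASM294v3, and 53 measured neighbours that were not biogenesis factors by the name rule were found. In SD1 6 of them rose and 17 fell, with a median of -0.17, where 19.5% of all probe sets rose and 23.7% fell. In SD2 4 rose and 8 fell, with a median of -0.07, where 17.6% rose and 14.3% fell. In the averaged fit 6 rose and 12 fell in SD1, and 2 rose and 3 fell in SD2. The highest of these neighbours in SD1 was idi1 beside sda1, at 0.61 in SD1 against 2.23 for sda1. Only the pair utp10 and arx1 consisted of adjacent biogenesis genes, and both rose, by 1.17 and 1.89 in SD1 and by 0.81 and 1.44 in SD2.

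**Figure D5:**
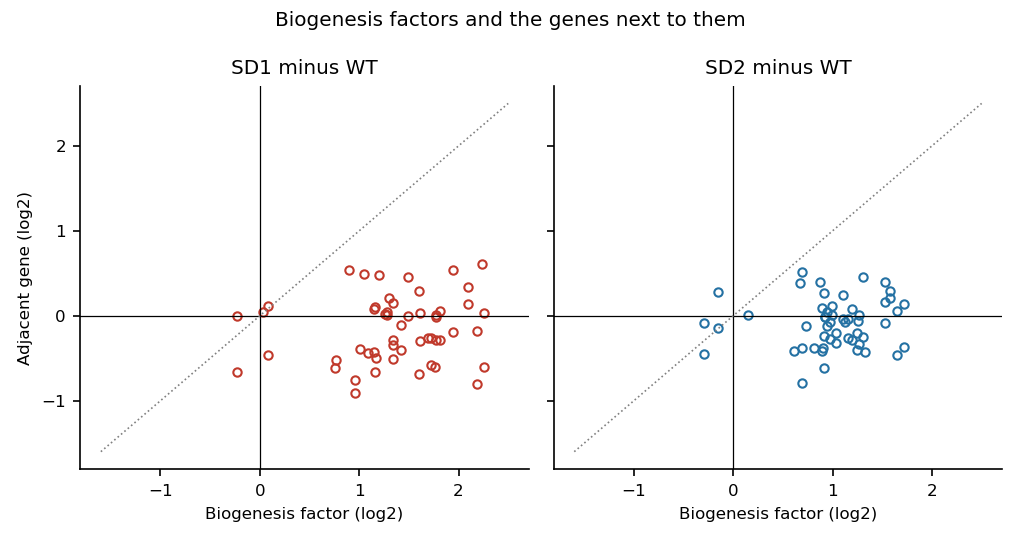
Difference from WT (log2) of a biogenesis gene on the horizontal axis and of the gene next to it on the vertical axis, for SD1 at left and SD2 at right, with 1 point per adjacent pair, the pair utp10 and arx1 left out, and a dotted line at equal change. Neighbours lie on both sides of 0, between -0.90 and 0.61 in SD1 and -0.79 and 0.51 in SD2, while most biogenesis genes lie well to the right of 0.

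Budding yeast probe sets on the same arrays gave the background for these names. Of 95 S. cerevisiae probe sets whose symbols matched the same rule, 92 were at or below the background on all arrays. That background was itself set so that 95% of all S. cerevisiae probe sets stayed under it. Such a count is therefore largely fixed by the definition. The median level of the 95 probe sets was 3.64 in SD1, 3.65 in SD2 and 3.66 in WT (log2). Their median difference was 0.01 in SD1 minus WT and -0.03 in SD2 minus WT.

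Some other measures differed from WT in a deletion strain, while others overlapped WT. For 18S rRNA the 3' probe set minus the 5' probe set gave -0.44 to -0.33 in SD1, -0.52 to -0.29 in SD2 and -1.53 to -0.90 in WT, with SD1 and SD2 both above WT (log2). For 28S rRNA it gave 0.17 to 0.62 in SD1, 0.13 to 0.37 in SD2 and -0.47 to -0.08 in WT, again with both above WT. For the ACT1 control it gave 0.27 to 0.33 in SD1, 0.30 to 0.39 in SD2 and 0.23 to 0.39 in WT, which overlap. Of 8 markers of M mating-type cells, 6 fell in SD1 and 3 fell in SD2, and none was at background. Over all probe sets 23.7% fell in SD1 and 14.3% in SD2. With arrays 1 and 3 averaged the numbers were the same, beside 18% and 9.64% of all probe sets. The summed level of the M markers on the linear scale was 4957 to 7191 in SD1, 6386 to 10062 in SD2 and 8842 to 14265 in WT. Of 6 markers of P cells, 1 rose and 1 fell in SD1 and likewise 1 and 1 in SD2, and none was at background. Over all probe sets 19.5% rose in SD1 and 17.6% in SD2, so 1 of 6 does not stand out. The P marker that rose was map2 (1.11 in SD1, 0.96 in SD2), and sxa1 fell (-0.53, -0.27). With averaging 1 rose and 1 fell in SD1, and 1 rose and 0 fell in SD2. The P sums were 6051 to 6851 in SD1, 7785 to 8472 in SD2 and 8412 to 9273 in WT. Sums on the linear scale weigh the markers of highest level most, here mfm2 and sxa1. The part of these measures in the rise of the biogenesis factors was not tested. On arrays of pooled cells, more RNA per cell and more cells with a high level cannot be told apart.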

How the data were processed

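Values were deposited by the authors on a log2 scale, with a single value for each probe set on each array. RMA and Partek are named in the submitters' processing notes. Versions, settings and joint normalization of the arrays are not given in the sources used here. RNA (500 ng of total RNA per array) was labelled with biotin per the labels' protocols. Of 10928 probe sets, 5538 were named by the platform's annotation, 2937 of them for S. pombe (3 recognised by the lower-case symbol) and 2601 for S. cerevisiae, and current symbols came from assembly ASM294v3.

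The values were used as deposited. SD1 minus WT, SD2 minus WT and SD2 minus SD1 came from 1 linear model of the 9 arrays with a mean for each strain (lmFit and eBayes of limma 3.58.1, R 4.3.3), with Benjamini-Hochberg adjustment over 2937 probe sets and calls at an adjusted p under 0.05. The script was tested on simulated data. Arrays give no depth, so their number limits the precision. Labels give no separate cultures beyond the words biological rep, so p-values measure the spread between these arrays.

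Arrays of the same number shared exact equal values over all probe sets (3934 to 4218 per pair for number 1, 74 to 80 for number 2, 168 to 353 for number 3), against 0 to 4 for the 27 pairs of different numbers, so values were also compared within each number. As a check of pairing, residuals around the strain means correlated between arrays that share a number at -0.103 to 0.871, and not every pair was above 0.1. Averaging arrays 1 and 3 was chosen after seeing the data. Members, lists and roles were chosen with earlier results of these data known, and after the values could be seen rlp1 and rrp16 were assigned to roles and rrn3, nuc1 and cka1 were taken out of the list of other biogenesis genes. Values in every array are given for the 3 largest called changes of each role list in SD1, for genes that failed in SD1 or SD2, and for the 3 lowest and 3 highest differences SD2 minus SD1. The genes cbf5 (in the plot of 8 genes) and ani1 were added. Alternatives were a replicate block, other scalings, a background filter (above the S. cerevisiae 95th percentile on at least 3 arrays), 2 strains only, a variance trend and arrays left out. Promoter and protein sequences were not analysed here.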

Additional observations from a re-analysis of the deposited data

Results flagged for a closer look

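One S. cerevisiae probe set named by the same rule, IMP3, was above background on all arrays, with 5.93, 6.02 and 5.94 in SD1, 5.74, 6.04 and 6.01 in SD2, and 5.74, 5.62 and 5.81 in WT (log2). All SD1 arrays lay above WT (difference 0.24). In SD2 (difference 0.21) arrays 2 and 3 lay above all WT arrays, and array 1 was exactly equal to WT array 1. IMP3 was singled out because it is a signal from a probe set outside the comparisons.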

How the results depend on the processing

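The count of 41 higher genes in SD1 was the same under the replicate block, array median scaling, quantile scaling, the background filter, 2 strains only, the variance trend and every array left out in turn. In SD2 these settings gave 41 or 42 calls, and the extra calls were rlp1 with the replicate block (0.15, adjusted p = 0.026) and nop16 without SD2 array 1 (-0.28, adjusted p = 0.0417, lower). The replicate block called 3 genes in SD2 minus SD1, where 0 were called otherwise under the settings just named. Over the arrays left out the median difference ran from 1.18 to 1.44 in SD1 minus WT, 0.88 to 1.06 in SD2 minus WT and -0.40 to -0.33 in SD2 minus SD1. The following settings were added after seeing the data. With arrays 1 and 3 averaged and a replicate block 40 genes rose in SD1 and 38 in SD2 (15.5% and 11.2% of all probe sets), with dbp8 lost in both and dbp7 and noc3 lost in SD2. Without all arrays numbered 1, 2 or 3, 41 rose in SD1 (22.3%, 14.6% and 9.47% of all probe sets), and 41, 38 and 30 rose in SD2 (20.9%, 10.5% and 5.65%). Over 2937 probe sets, averaging changed the calls from 573 higher and 696 lower to 475 and 530 in SD1, and from 518 and 419 to 397 and 283 in SD2. If arrays 1 and 3 are 1 sample, standard errors and p-values over 9 arrays are too small. Among the 45 genes the replicate block over 9 arrays changed no other call, but over all probe sets it gave 787 higher and 969 lower in SD1 and 764 and 694 in SD2. No factor was near background on any array, so signal over background did not limit these values.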
